A study of Mus musculus with 6 samples.

Results

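The immediate early genes Fos, Fosb, Jun, Junb, Egr1, Egr2, Atf3, Ier2, Ier3 and Dusp1 were examined in mouse fat. They were read from the probe sets that the platform annotation pairs with exactly 1 gene, which gave 12 probe sets for these 10 genes, among 18194 gene symbols in all. Jun and Egr2 had 2 probe sets each, and all 12 lay above the filter on dim probe sets. RNA of epididymal white fat came from 6 male mice aged 10 weeks, 1 mouse per array. The 3 wild type mice were of the strain background C57BL6;SJL. The 3 transgenic mice had the same background and the aP2-nSrebp1c transgene, which expresses the nuclear form of the lipogenic transcription factor SREBP-1c under the fat cell promoter aP2. The controls carried no other allele or agent named in the labels, and the series text calls them litter-matched. The strain label spells the transgene differently on transgenic replicates 2 and 3 (aP2-nSrebp1 and aP2-SREBP1c). The labels describe these mice as lipodystrophic, that is, with fat tissue lost or poorly formed. The aP2 promoter belongs to Fabp4, which macrophages are also known to express.

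Immediate early genes are transcribed within minutes of a stimulus from factors that are already present in the cell, without new protein synthesis. Fos and Jun proteins pair to form the transcription factor AP-1, Egr proteins are zinc finger factors, and Dusp1 is a phosphatase that switches off the MAP kinases which induce the group. The transcripts are short-lived, and handling or dissociation of a tissue is known to induce them, so that each array is given by itself below. The labels used here give no times or order of dissection.

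The deposited values are MAS5 signals, that is, linear intensities. On the array of transgenic replicate 2 the 3′ over 5′ signal ratio of the beta-actin control was 122, against 1.11 to 1.81 on the other arrays, which is the usual sign of shortened RNA, and its median signal was 37.7 against 53.4 to 65.4. Fold changes of the 10 genes are therefore given with and without this array. Groups were compared with limma on log2(signal + 16), with Benjamini-Hochberg adjustment over the 27023 tested probe sets and a threshold of 0.05. A fold change on this scale understates the change of dim genes. In this fit 802 probe sets passed, which is 2.97% of those tested. The fat cell genes Lep (log2 fold change −3.74 ± 0.31 SE, adjusted p = 0.00301) and Adipoq (−0.93 ± 0.18 SE, adjusted p = 0.0448) fell, and Srebf1 (1.08 ± 0.19 SE, adjusted p = 0.0342) rose, while Fabp4, whose promoter drives the transgene, had 0.00 ± 0.10 SE (adjusted p = 0.995). The adjusted p of Adipoq and Srebf1 ranged up to 0.217 and 0.188 with 1 array left out. Without transgenic replicate 2 the log2 fold changes were −3.93 for Lep, −1.03 for Adipoq, 0.98 for Srebf1 and 0.00 for Fabp4. Fabp4 was read here from its brightest probe set. The mean over its probe sets, taken only with all 6 arrays, was lower in transgenic fat, as given in the last section. Fabp4 (12376 to 14121) and Adipoq (4626 to 12188) gave high signals on all 6 arrays, as did Car3, but some other fat cell markers did not. Cidec and Lipe had 226.8 and 184.3 on transgenic replicate 2, against wild type means of 9254 and 6939. On transgenic replicates 1 and 3 Cidec had 4318.5 and 5320.9, and Lipe 2220.2 and 1507.2.

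The comparison asked whether the immediate early genes moved together in transgenic fat, and they did not. Atf3, Fos and Egr2 were higher on all 3 transgenic arrays than on any wild type array, by 3.01-fold, 3.34-fold and 2.73-fold, and Jun was lower on all 3, by 3.23-fold. With all 6 arrays Atf3 rose (adjusted p = 0.0337) and the other 9 genes did not pass the test, while 3.77% of the 13112 genes tested passed it, 2.23% of them upward. With transgenic replicate 2 left out, Fos, Egr2 and Atf3 rose, Jun fell and 6 did not pass the test, against 15.4% of all genes in either direction (8.04% upward, 7.33% downward). Then 6 of the 10 had an unadjusted limma p under 0.05, against 29.3% of all genes. The groups did not overlap for 4 of the 10 genes (3 higher, 1 lower), where this held for 30.4% of all genes (14.1% higher, 16.3% lower). Without transgenic replicate 2 it held for 6 genes (Ier3 higher and Dusp1 lower in addition), against 46.5% of all genes (24.1% higher, 22.4% lower). The median log2 fold change of the 10 genes was −0.17 with 6 arrays and 0.27 without transgenic replicate 2, against −0.04 and 0.02 over all genes.

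**Figure D1:**
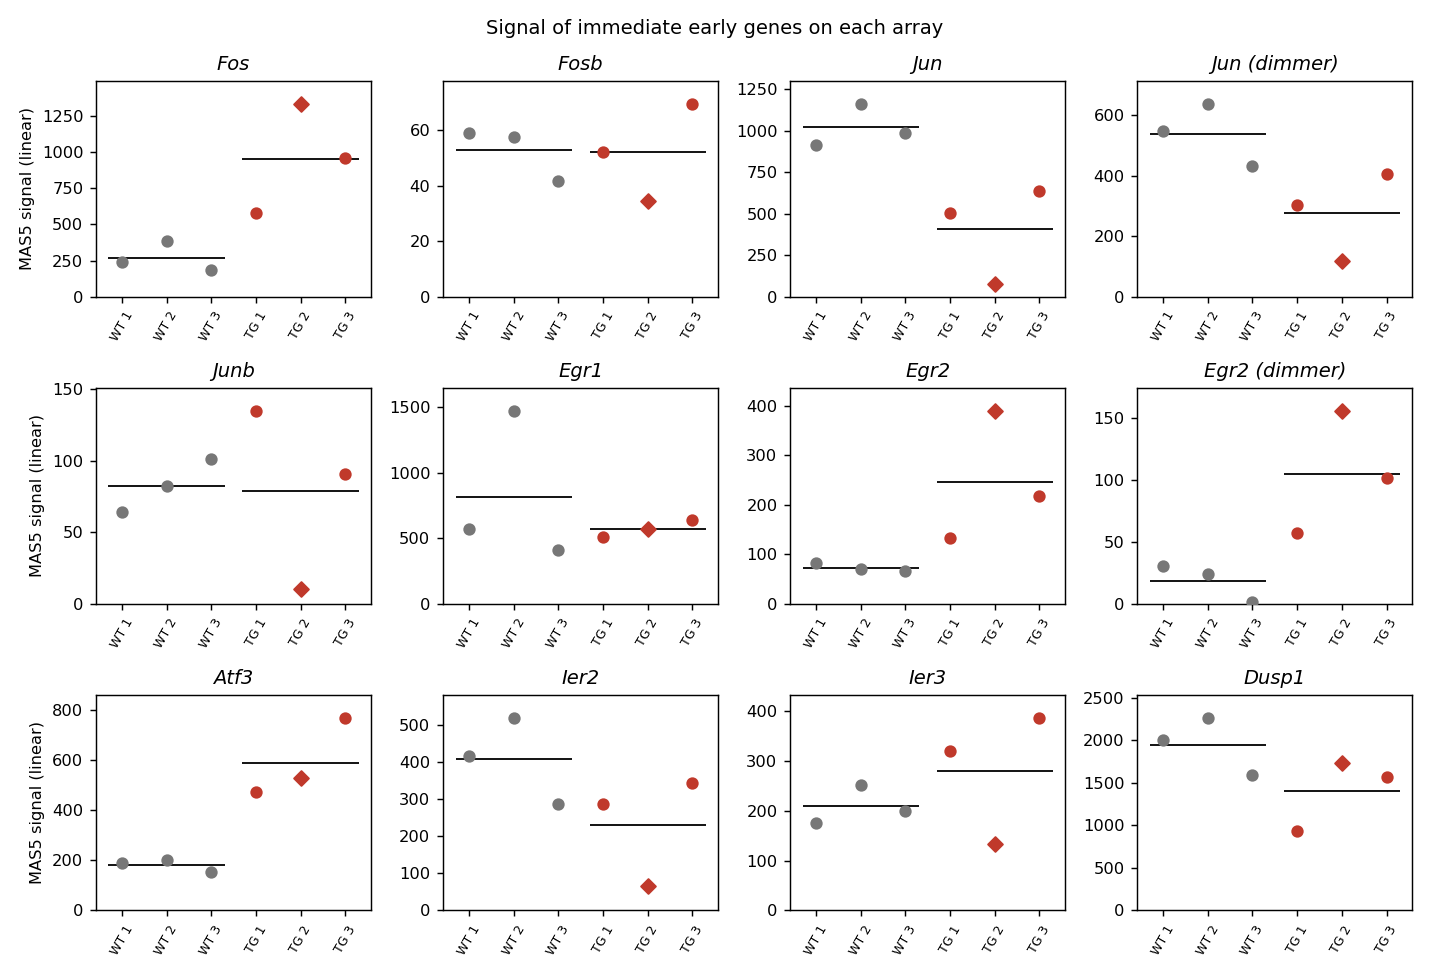
MAS5 signal (linear, vertical axis) of each of the 12 probe sets on the 3 wild type (WT, grey) and 3 transgenic (TG, red) arrays. Black lines are group means, the diamond is transgenic replicate 2, and "dimmer" marks the second probe set of Jun and Egr2; Fos, Egr2 and Atf3 lie above every wild type array on all 3 transgenic arrays, and both Jun probe sets lie below.

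Fos, the AP-1 subunit that names the family, had signals of 238, 384.8 and 188.3 in wild type replicates 1, 2 and 3 and of 576, 1329 and 954.7 in transgenic replicates 1, 2 and 3. The lowest transgenic array stood above the highest wild type array, and the highest value came from the array with shortened RNA. The means were 270.4 ± 102.2 and 953.2 ± 376.4 (SD, n = 3 each), which is 1.74 ± 0.40 SE on the log2 scale with a limma adjusted p of 0.081. With transgenic replicate 2 left out the log2 fold change was 1.46 ± 0.31 SE (adjusted p = 0.0142). Fosb, a second Fos family subunit, was dim, at 59.1, 57.4 and 41.8 in wild type and 52, 34.7 and 69.4 in transgenic fat. The groups of Fosb overlapped fully, and its log2 fold change of −0.04 ± 0.27 SE (adjusted p = 0.954) became 0.16 without transgenic replicate 2 and 0.07 after quantile normalization.

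Jun, the partner of Fos in AP-1, went the other way. Its brighter probe set gave 914.7, 1159 and 988.1 in wild type and 505.4, 79.4 and 638.6 in transgenic fat. The dimmer probe set gave 548, 636.5 and 433.4 in wild type and 302.4, 119.2 and 406.2 in transgenic fat. On both, every transgenic array was below every wild type array, and transgenic replicate 2 was far below the other 2. The ratio of the brighter to the dimmer probe set was 1.57 to 2.28 on 5 arrays and 0.666 on transgenic replicate 2, so that the probe sets disagree on that array about the size of the difference. For the brighter probe set the log2 fold change was −1.69 ± 0.70 SE at an adjusted p of 0.3, and leaving out that array gave −0.82 ± 0.19 SE at an adjusted p of 0.0208. For the dimmer one these values were −1.06 ± 0.45 SE (adjusted p = 0.306) and −0.58 ± 0.22 SE (adjusted p = 0.132).

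Junb, the Jun family member that can restrain Jun, had 63.9, 82 and 101.1 in wild type and 134.8, 10.3 and 91 in transgenic fat. The value of 10.3 on transgenic replicate 2 lies under the 16 added before the logarithm and is close to background. The log2 fold change was −0.37 ± 0.63 SE (adjusted p = 0.791) and turned to 0.39 ± 0.26 SE (adjusted p = 0.394) without that array, so that no direction holds for Junb.

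Egr2, a zinc finger factor known from myelinating cells, lymphocytes and early adipogenesis, had 81.7, 69.9 and 66.6 in wild type and 133, 389 and 217.7 in transgenic fat on its brighter probe set. The wild type arrays lay close together, and the transgenic arrays were spread over a wide range above them. The means were 72.7 ± 7.9 and 246.6 ± 130.4 (SD, n = 3 each), which is 1.45 ± 0.38 SE on the log2 scale (adjusted p = 0.113). Without transgenic replicate 2 it was 1.08 ± 0.25 SE (adjusted p = 0.0204). The dimmer probe set gave 30.4, 23.8 and 1.4 in wild type, of which the last is at background, and 57.1, 155.9 and 101.5 in transgenic fat. It showed the same order of the 3 transgenic arrays, and its log2 fold change was 1.84 ± 0.47 SE at an adjusted p of 0.108, and leaving out transgenic replicate 2 gave 1.54 ± 0.44 SE at an adjusted p of 0.0497.

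Egr1, the most widely induced Egr factor, had 571.3, 1472 and 410.1 in wild type and 506.7, 567.6 and 641.9 in transgenic fat. Wild type replicate 2 stood far above the other 5 arrays, and the 3 transgenic arrays fell between the other 2 wild type arrays or just above them. The log2 fold change was −0.30 ± 0.47 SE at an adjusted p of 0.774, and leaving out wild type replicate 2 gave 0.23 at an adjusted p of 0.836. Egr1 and Egr2 thus differed in their values on the same arrays, but the difference between the genes was not tested.

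Atf3, a stress-induced factor of the ATF family that restrains inflammatory genes in macrophages, had 190.4, 201.3 and 155.2 in wild type and 474.5, 528.1 and 770.9 in transgenic fat. The groups did not overlap, and transgenic replicate 2 lay inside the range of its group. The means were 182.3 ± 24.1 and 591.2 ± 157.9 (SD, n = 3 each), and the log2 fold change was 1.59 ± 0.28 SE (adjusted p = 0.0337). With transgenic replicate 2 left out it was 1.65 ± 0.24 SE (adjusted p = 0.00194). The log2 fold change stayed between 1.39 and 1.73 with any 1 array left out, but the adjusted p was 0.177, 0.181 and 0.195 without wild type replicates 1, 2 and 3, and 0.0501 and 0.0918 without transgenic replicates 1 and 3.

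Ier2, a small nuclear regulator, had 417.3, 520.1 and 287 in wild type and 287.8, 64.7 and 343.1 in transgenic fat. Transgenic replicate 2 was far below the rest, and the other 2 transgenic arrays lay inside the wild type range. Its log2 fold change was −1.0 ± 0.59 SE at an adjusted p of 0.456, and leaving out that array gave −0.32 ± 0.25 SE at an adjusted p of 0.479. Ier3, which modulates survival and NF-κB signals, had 175.5, 252.2 and 198.5 in wild type and 320.5, 133.7 and 386.4 in transgenic fat. Here too transgenic replicate 2 was the lowest of all 6 arrays, while the other 2 transgenic arrays were above all wild type arrays. The log2 fold change of Ier3 was 0.29 ± 0.41 SE at an adjusted p of 0.744, and leaving out this array gave 0.73 ± 0.21 SE at an adjusted p of 0.057.

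Dusp1, the feedback phosphatase, had 1999, 2264 and 1587 in wild type and 927.8, 1729 and 1565 in transgenic fat. Transgenic replicate 2 lay inside the wild type range, and the other 2 transgenic arrays lay below it. The log2 fold change was −0.50 ± 0.30 SE at an adjusted p of 0.459, and leaving out transgenic replicate 2 gave −0.67 ± 0.24 SE at an adjusted p of 0.112.

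**Figure D2:**
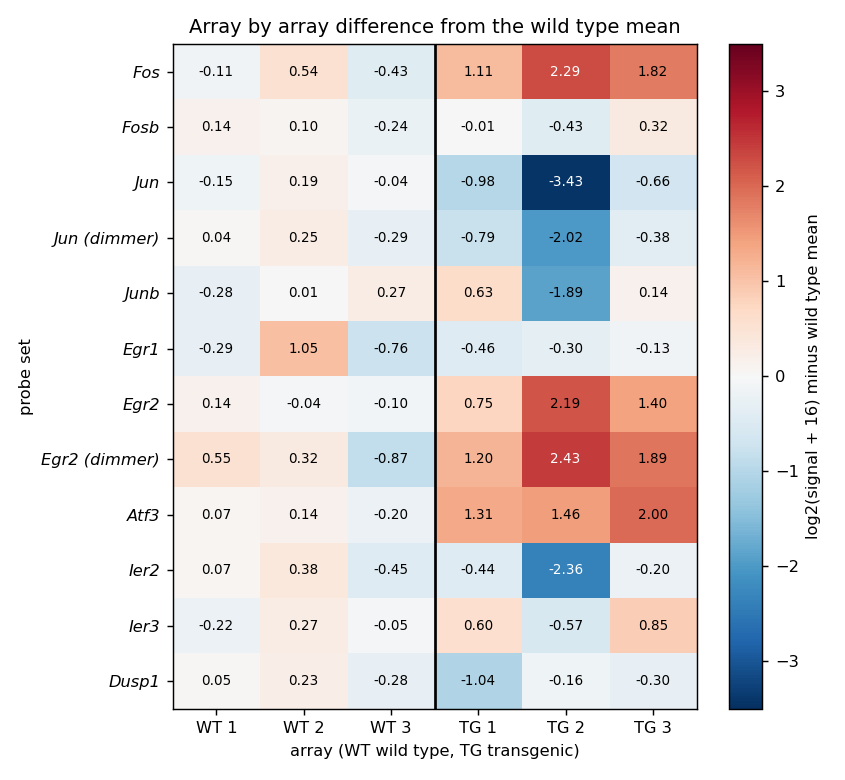
Difference of log2(signal + 16) from the wild type mean of the same probe set, for 12 probe sets (rows) on 6 arrays (columns, WT wild type and TG transgenic); red is higher and blue lower. Transgenic replicate 2 holds both the highest value of Fos (2.29) and the lowest of Jun (−3.43).

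Array by array, the wild type mice also differed among themselves. Wild type replicate 2 was the highest of the 3 wild type arrays for 7 of the 10 genes (Fos, Jun, Egr1, Atf3, Ier2, Ier3 and Dusp1), where it was the highest for 18.2% of all genes tested. Wild type replicate 3 was the lowest of the wild type arrays for 7 of 10 (Fos, Fosb, Egr1, Egr2, Atf3, Ier2 and Dusp1), against 42.7% of all genes. Within wild type the median SD of the log2 values was 0.25 for the 10 genes and 0.16 for all genes, and within transgenic fat it was 0.66 and 0.43. The transgenic SD includes the array with shortened RNA and was not computed without it. Among the 10 genes Egr1 had the widest wild type spread (SD 0.94) and the narrowest transgenic one (SD 0.17).

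Transgenic replicate 2 divided the group. It was the lowest of all 6 arrays for 5 genes (Fosb, Jun, Junb, Ier2 and Ier3) and the highest for 2 (Fos and Egr2), where it was the lowest for 39.1% and the highest for 29.8% of all genes tested. It was the lowest transgenic array for those 5 genes, transgenic replicate 1 was the lowest for the other 5, and transgenic replicate 3 for 0. Over all genes these shares were 48.4%, 45.4% and 6.25%, so that the 10 genes were close to all genes in this.

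A second control ratio split the arrays differently. The 3′ over 5′ ratio of the Pcx control was 3.06 for wild type replicate 3 and 3.1 for transgenic replicate 1, and 14.1 to 52 on the other 4 arrays. The value of 14.1 was that of transgenic replicate 2, so this ratio does not set apart the array with shortened RNA. A block on it does not adjust for that array. Within the first pair the transgenic minus wild type difference in log2(signal + 16) was 1.53 for Fos, 1.52 for Atf3, 0.85 for Egr2 and −0.95 for Jun. Among the other 4 arrays the differences of the group means were 1.84, 1.63, 1.75 and −2.07. The groups of these 4 genes did not overlap, so their directions had to agree within both classes, and this agreement shows nothing further. With this class as a block the limma adjusted p was 0.054 for Fos, 0.0451 for Atf3 and 0.332 for Jun. For Egr2 it was 0.108 on the brighter and 0.0269 on the dimmer probe set. Egr1 had 0.29 in the first pair and −0.59 among the other 4 arrays, Junb 0.36 and −0.74, and Fosb 0.23 and −0.17.

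**Figure D3:**
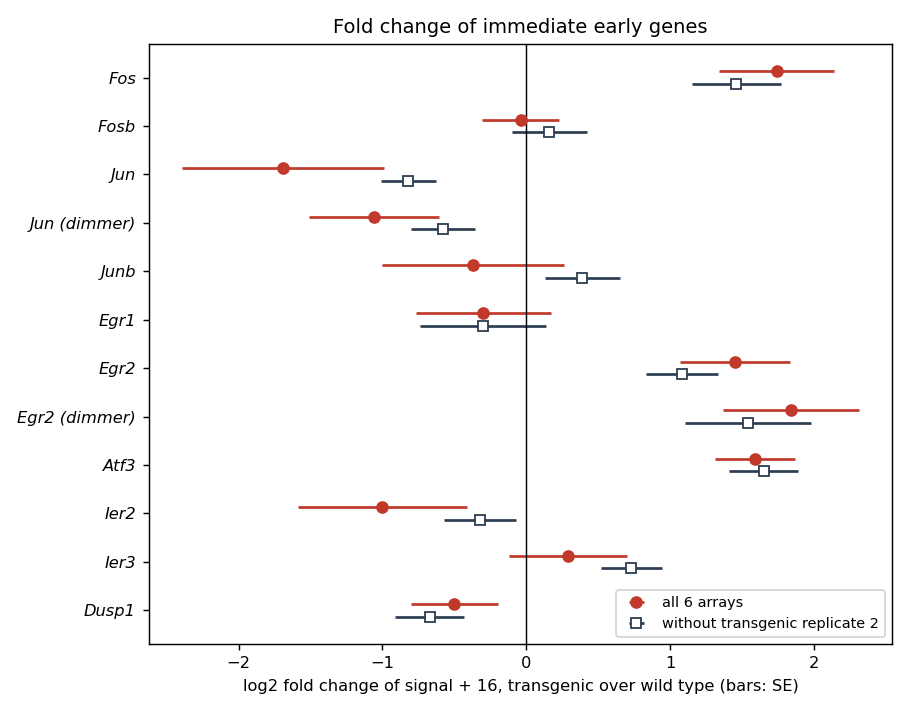
Log2 fold change of signal + 16, transgenic over wild type (horizontal axis, bars are SE), with all 6 arrays (red circles) and without transgenic replicate 2 (open squares), for 12 probe sets. Atf3 is nearly the same in both (1.59 and 1.65), Jun goes from −1.69 to −0.82, and Junb crosses 0.

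Promoter sequence is shown for the genes that stood apart between the groups, and for Dusp1 as the feedback gene with a full cAMP response element (CRE). The sequences are from RefSeq (build GRCm38.p6), 5′ to 3′ on the gene's strand, and 8 of the 10 genes had an entry. For Fos, Atf3, Jun and Dusp1 these are the 150 bases before the annotated start. Capitals mark the CRE core TGACG in Fos and Atf3 (in Atf3 on the opposite strand, read as CGTCA), the variant TGACATCA in Jun, and the full palindrome TGACGTCA in Dusp1, which contains the core. For Egr2, with 5 annotated starts, 30 bases around a CArG box, the site known to bind serum response factor, are printed with the box in capitals.
Fos, chr12:85473740-85473889, plus strand: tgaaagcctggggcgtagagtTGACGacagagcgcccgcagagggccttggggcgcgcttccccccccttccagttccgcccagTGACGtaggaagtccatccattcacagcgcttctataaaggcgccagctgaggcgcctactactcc
Atf3, chr1:191183334-191183483, minus strand: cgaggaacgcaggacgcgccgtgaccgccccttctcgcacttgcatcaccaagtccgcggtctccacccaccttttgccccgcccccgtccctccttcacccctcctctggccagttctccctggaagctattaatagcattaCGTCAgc
Egr2, chr10:67537787-67537816, plus strand: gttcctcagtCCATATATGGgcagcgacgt
Jun, chr4:95052223-95052372, minus strand: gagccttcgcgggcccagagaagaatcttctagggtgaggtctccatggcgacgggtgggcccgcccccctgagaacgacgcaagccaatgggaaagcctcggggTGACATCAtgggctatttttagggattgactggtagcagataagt
Dusp1, chr17:26508473-26508622, minus strand: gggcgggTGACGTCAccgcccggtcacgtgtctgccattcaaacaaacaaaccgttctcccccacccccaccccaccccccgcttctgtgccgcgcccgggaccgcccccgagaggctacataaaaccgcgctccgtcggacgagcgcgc

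Both strands were searched in the same 150 bases of 32851 RefSeq windows. The core TGACG lies in 13.3% of them, the palindrome TGACGTCA in 1.36%, the variant TGACATCA in 2.32% and a CArG box in 0.916%. In Fos the core begins 129 and 66 bases before the start, in Atf3 it begins 7 bases before it, in Fosb 60 and in Junb 106. In Jun TGACATCA begins 45 bases before the start, and in Dusp1 TGACGTCA begins 143 bases before it. These are matches of letters and not measured binding. The core also lies before some of the annotated starts of Egr2.

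Among 19 other measured genes of the AP-1, EGR and ATF families, 1 passed upward and 0 downward, with 18 not passing and 3 at an unadjusted limma p under 0.05. Over all genes 18.4% had such a p, as did 4 of the 10 immediate early genes. The gene that rose was Fosl1, which encodes the Fos family subunit Fra-1. Its signals were 56.6, 58.3 and 45.7 in wild type and 221.8, 176.1 and 238.1 in transgenic fat, far apart on every array, with transgenic replicate 2 the lowest of its group. Its log2 fold change was 1.71 ± 0.23 SE at an adjusted p of 0.013, and leaving out transgenic replicate 2 gave 1.83 at an adjusted p of 0.000524. The adjusted p of Fosl1 was 0.0908, 0.0984 and 0.0956 without wild type replicates 1, 2 and 3, 0.0593 without transgenic replicate 3 and 0.066 with the replicate number as a block. Among the others, named after their values were seen, the largest were Atf5 (−1.21 ± 1.07 SE, adjusted p = 0.605), Batf3 (−1.19 ± 0.46 SE, adjusted p = 0.264) and Maff (0.99 ± 0.30 SE, adjusted p = 0.17). Leaving out transgenic replicate 2 gave 0.17 for Atf5, whose signal was 85.5 on that array and 1515 to 1814 on the other 5, −0.68 for Batf3 and 0.76 for Maff. Without transgenic replicate 2 the list again had 1 that rose and 0 that fell, and its median log2 fold change was −0.10 with 6 arrays and 0.38 without that array. The shares over all genes without that array were 8.04% upward and 7.33% downward, for this list and those below.

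Of 25 other rapid-response transcription factors 0 rose and 0 fell, with 8 at an unadjusted limma p under 0.05. With 6 arrays the largest changes were those of the clock gene Per1 (−1.56 ± 0.72 SE, adjusted p = 0.348) and of the clock-linked repressor gene Bhlhe40 (1.43 ± 0.36 SE, adjusted p = 0.106). Per1 had a signal of 44.6 on transgenic replicate 2 and of 298.4 and 444.5 on the other transgenic arrays, and its log2 fold change without that array was −0.67 (adjusted p = 0.0693). With transgenic replicate 2 left out, 5 rose (Klf10, Nfil3, Cebpb, Bhlhe40 and Irf1) and 4 fell (Klf2, Klf4, Btg2 and Id3), all named after their values were seen. Leaving it out also raised the shares over all genes, from 2.23% to 8.04% upward and from 1.54% to 7.33% downward. Klf2 and Klf4, Krueppel-like factors that respond to blood flow in endothelium, had 1254, 1752 and 1287, and 1294, 1749 and 1433, in wild type against 541, 500.6 and 801.6, and 575.6, 553 and 875.2, in transgenic fat. Both were lower on all 3 transgenic arrays. The summed signal of 6 endothelial markers was 6886 to 8079 in wild type and 1766 to 4963 in transgenic fat. With 6 arrays 0 of these markers passed the limma test, 2 had an unadjusted p under 0.05, and the groups overlapped for Emcn and Tek. Leaving out transgenic replicate 2, 4 fell (Pecam1, Cdh5, Tek and Cldn5), while Emcn had 0.19 (adjusted p = 0.571). The part of endothelial cells in this was not tested.

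Among 18 MAP kinase phosphatases and pathway inhibitors Rgs1 passed upward and 0 downward, with 17 not passing. Rgs1, a brake on G protein signals that is known from leukocytes, went from 53.5, 52 and 43.9 to 287.5, 709.6 and 502.4, with no overlap. Its log2 fold change was 2.89 ± 0.35 SE at an adjusted p of 0.00938, and leaving out transgenic replicate 2 gave 2.59 at an adjusted p of 0.000233. The adjusted p of Rgs1 was 0.0693, 0.0766 and 0.0715 without wild type replicates 1, 2 and 3, and 0.0518 without transgenic replicate 3. Without transgenic replicate 2 Dusp8, a phosphatase of stress kinases named after its values were seen, also fell (log2 fold change −1.27, adjusted p = 0.0374).

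Of 20 kinases and factors upstream of the immediate early genes 0 rose and 0 fell, with 1 at an unadjusted limma p under 0.05. The largest changes were Mapkapk2, a kinase downstream of p38 (−1.53 ± 1.10 SE, adjusted p = 0.529), and Map2k6, which activates p38 (−1.29 ± 0.34 SE, adjusted p = 0.118). On transgenic replicate 2 Mapkapk2 had a signal of 41.3, against 1010 to 1224 on the other arrays, and its log2 fold change without that array was −0.12 (adjusted p = 0.704). For Map2k6 it was −1.26 (adjusted p = 0.0482). Rps6ka3, the kinase RSK2, named after its values were seen, had −0.71 (adjusted p = 0.0184) without that array, so that 0 rose and 2 fell. Srf, the factor that binds the CArG box, had −0.06 ± 0.23 SE (adjusted p = 0.918) with all arrays and −0.02 without transgenic replicate 2, and was named after its value was seen.

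Among 19 genes of RNA decay, NF-κB feedback and stress 0 rose and 0 fell, with 3 at an unadjusted limma p under 0.05. Plk3, a stress-responsive kinase, had the largest change. Its signals were 68.4, 87.8 and 27.2 in wild type and 1135, 69.7 and 1218 in transgenic fat, so that transgenic replicate 2 lay inside the wild type range and the other 2 far above it. Its log2 fold change was 2.78 ± 1.03 SE at an adjusted p of 0.25, and leaving out that array gave 4.04 at an adjusted p of 8.62e-05. Gadd45a, a growth arrest gene, had 1.15 ± 0.30 SE at an adjusted p of 0.112, and leaving out this array gave 0.96 at an adjusted p of 0.0257. With transgenic replicate 2 left out, 5 rose (Gadd45a, Gadd45b, Gadd45g, Pim1 and Plk3) and 0 fell, against 8.04% and 7.33% of all genes. Gadd45b, Gadd45g and Pim1 were named after their values were seen.

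Heat-shock genes, which are also known to respond to tissue handling, showed no calls with all arrays. Of 13 measured, 0 rose and 0 fell, with 1 at an unadjusted limma p under 0.05. Hspb1 had −1.56 ± 0.55 SE (adjusted p = 0.229) and Hspb8 −1.05 ± 0.75 SE (adjusted p = 0.526), both small heat-shock protein genes. Without transgenic replicate 2 the co-chaperone gene Bag3 rose (0.94, adjusted p = 0.0164), Hspb1 fell (−0.88, adjusted p = 0.00917) and Hspb8 had −0.11 (adjusted p = 0.727). Bag3 was named after its values were seen. The median of the list was 0.03 with 6 arrays and 0.02 without that array.

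Of 17 secreted and signalling products that are known to be induced alongside immediate early genes, Cxcl2 passed upward and 0 downward, with 16 not passing and 6 at an unadjusted limma p under 0.05. Cxcl2, a neutrophil chemokine, went from 36.2, 38.2 and 31.4 to 157.2, 213.7 and 198.6, which is 2.0 ± 0.22 SE on the log2 scale (adjusted p = 0.00643). Its adjusted p was 0.0599, 0.0632 and 0.057 without wild type replicates 1, 2 and 3. With transgenic replicate 2 left out Cxcl2 and Timp1, an inhibitor of metalloproteases, rose, and Ccn2 and Thbs1, matrix-associated proteins, fell. Thbs1 had 1452, 2099 and 1207 in wild type and 201.5, 52.2 and 459.3 in transgenic fat, and its log2 fold change was −3.02 ± 0.68 SE at an adjusted p of 0.0736, and leaving out transgenic replicate 2 gave −2.28 at an adjusted p of 0.00205. The last 3 genes were named after their values were seen.

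**Figure D4:**
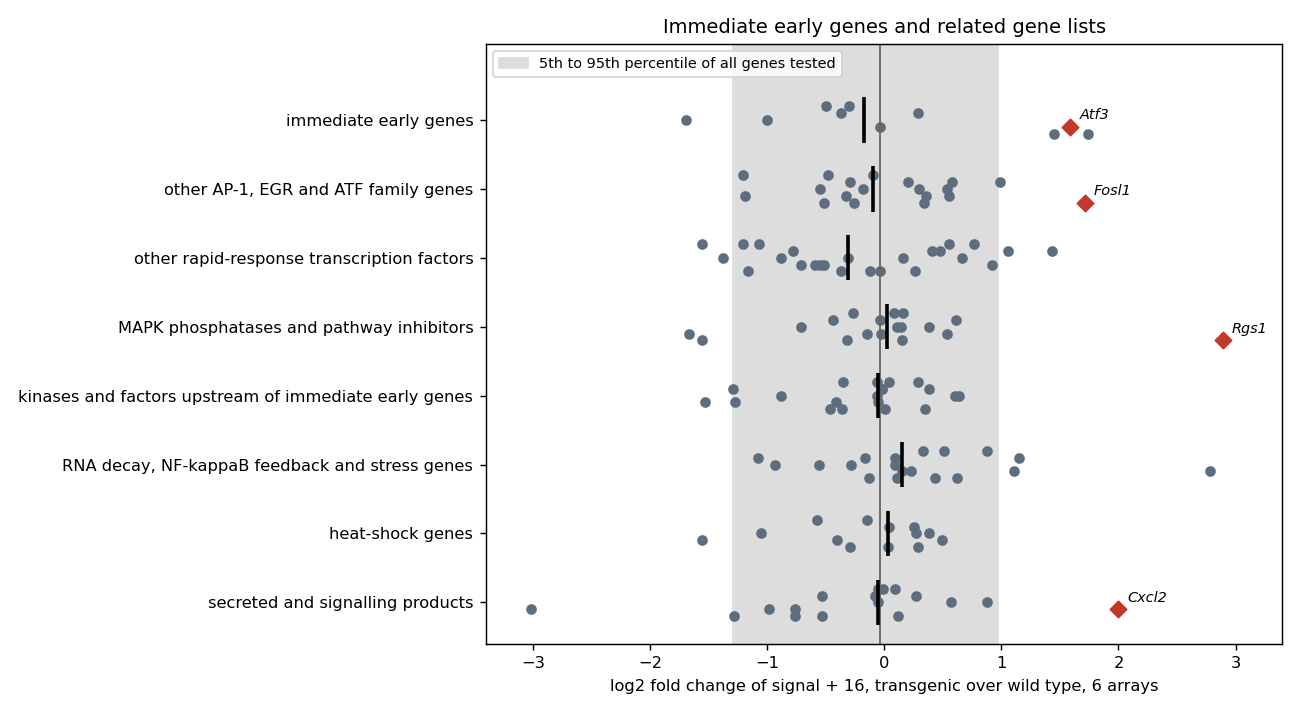
Log2 fold change of signal + 16, transgenic over wild type, 6 arrays (horizontal axis), of each measured gene in the immediate early group and 7 related lists (rows). Black bars are list medians, the grey line is the median of all genes (−0.04), the grey band their 5th to 95th percentile (−1.29 to 0.97), and red diamonds passed an adjusted p of 0.05; 1 gene passed in each of 4 lists, all upward.

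Summed markers of macrophages, neutrophils, mast cells and lymphocytes were higher on the same arrays as Fos, Egr2 and Atf3, though single markers differed. Sums for fat cells, endothelium, smooth muscle, mesothelium and red blood cells were lower on all 3 transgenic arrays, and fibroblast sums overlapped. The red blood cell sum held only 2 genes. Alas2 was lower on all 3 transgenic arrays, while Hba-a1 overlapped (log2 fold change 0.32, limma adjusted p = 0.578). In the smooth muscle list the groups overlapped for Acta2, Myh11 and Cnn1. The summed signal of 7 macrophage markers was 13139 to 15294 in wild type and 19682 to 26771 in transgenic fat, and that of 5 neutrophil markers was 182.2 to 324.6 and 641.1 to 779.1. For 4 mast cell markers it was 668.9 to 782.8 and 1590 to 1919, and for 7 fat cell markers 58208 to 64220 and 34340 to 38180. None (0) of these markers was at a signal of 0. Of the macrophage markers 0 passed the limma test with 6 arrays, 2 had an unadjusted p under 0.05, and 3 rose (Adgre1, Cd68 and Lyz2) without transgenic replicate 2. Without that array 8.04% of all genes rose. Adgre1, which encodes the macrophage surface protein F4/80, had 830.9, 763.5 and 609.4 in wild type and 1505, 3320 and 2613 in transgenic fat, with no overlap. The groups overlapped for 5 of the 7 macrophage markers; Cd68 had 567.6 on transgenic replicate 2, below every wild type array, and Itgam had a log2 fold change of −0.66 (adjusted p = 0.746). Of the neutrophil markers Camp rose, from 1.9 to 7.8 in wild type, which is background, to 130.8 to 165.6, and of the mast cell markers Cma1 and Cpa3, while Kit had −0.22 (adjusted p = 0.712). The sum of 4 markers of mesothelium, the lining of the fat pad, was 3952 to 4577 in wild type and 463.7 to 1598 in transgenic fat, and 1 of them (Msln) fell. The part of these cells in the values of Fos, Egr2 and Atf3 was not tested, and in RNA of whole tissue fewer cells of a type and less RNA per cell cannot be told apart.

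**Figure D5:**
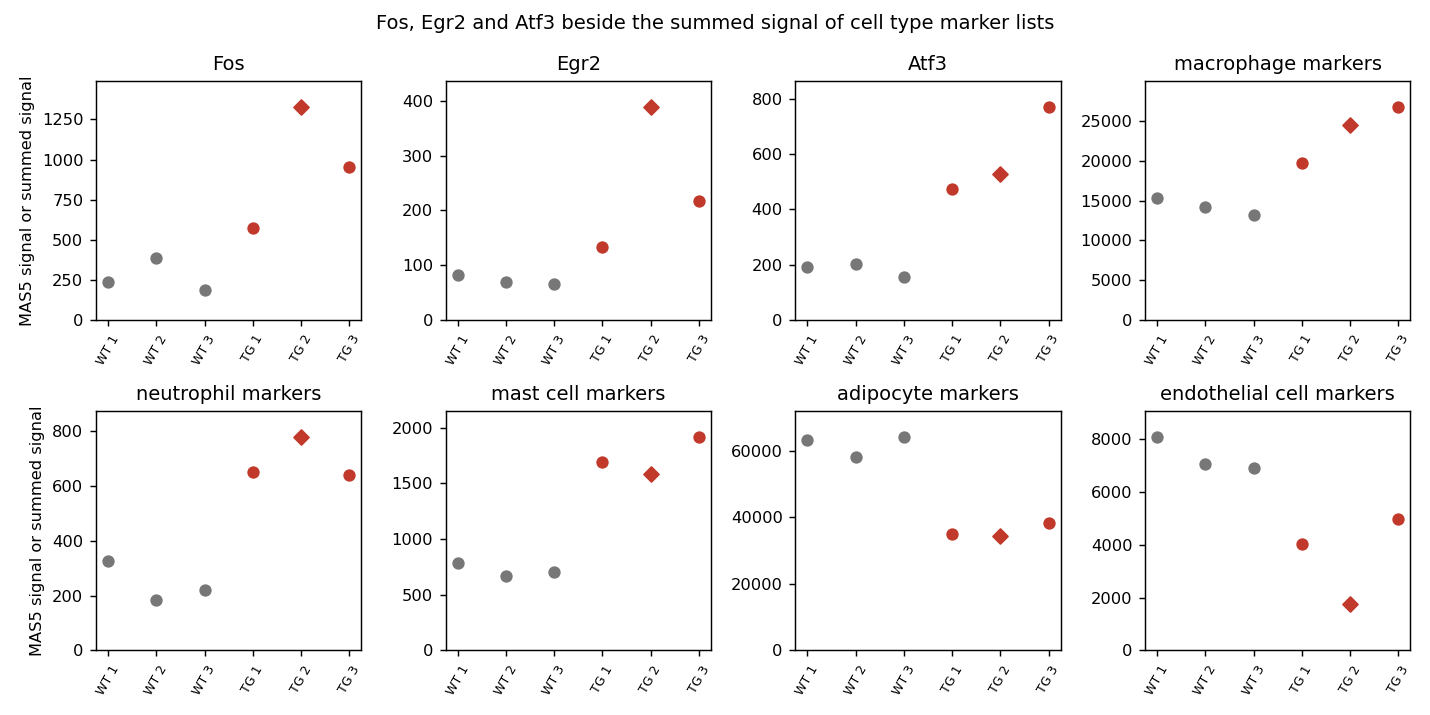
MAS5 signal of Fos, Egr2 and Atf3 and summed signal of 5 lists of cell type markers (vertical axes, linear) on 3 wild type (WT, grey) and 3 transgenic (TG, red) arrays; the diamond is transgenic replicate 2. Macrophage, neutrophil and mast cell sums are higher on all transgenic arrays, and fat cell and endothelial sums are lower.

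Genes were also ranked by how closely they followed Fos over the 6 arrays, by the root mean square difference of log2 values centred on each gene's mean, among 13111 genes. The 5 closest outside the group were Pkib, an inhibitor of protein kinase A (0.17), Zfyve26 (0.21), Retreg1 (0.21), the T cell and myeloid adaptor gene Fyb (0.22) and the Toll-like receptor gene Tlr1 (0.23), where the median over all genes was 1.04. Pkib had a mean wild type signal of 14.8, close to background. Over the 5 arrays without transgenic replicate 2 the closest were Pkib (0.10), Got1 (0.15), Cd72 (0.16), Pla2g7 (0.18) and Akr1c18 (0.18), so that Pkib alone was on both lists. Within the immediate early group Egr2 ranked 57 and Atf3 133 over 6 arrays, and 235 and 20 over 5 arrays. Ier3 ranked 6567 and 506, and Jun 12765 and 12033. This likeness is a description over arrays that share the difference between the groups and, with 6 arrays, the shortened RNA of 1 of them.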

How the data were processed

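Total RNA of 6 mice was hybridised to Affymetrix MOE430v2.0 arrays. The deposited values are linear signal intensities of 45101 probe sets, which the submitters' processing notes attribute to MAS5. The sources used here give neither its version nor its scaling target, and no present or absent calls, so that dim values carry no detection limit. The number of arrays limits the precision. The p-values set the group difference against the spread between arrays within a group. That spread includes the mice, their handling and RNA quality. The platform annotation pairs 34958 probe sets with 1 gene, 932 with several and 9211 with none. Genes were named only from the first kind; updating symbols through gene identifiers changed 0 names, and 204 identifiers were not matched.

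Analysis used R 4.3.3 with limma 3.58.1. Tables and plots were made with pandas 2.3.3, numpy 2.4.6 and matplotlib 3.10.9 under Python 3.11.15. The 64 control probe sets and the 40% with the lowest mean log2(signal + 16) were left out. Groups were compared with lmFit and eBayes (trend), as a two-sided test (4 residual degrees of freedom per probe set). A gene was read from its brightest tested probe set. The fit was tested on simulated data.

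The members and gene lists were chosen with earlier results of these data known, and support nothing by themselves. Text names all members; per related list up to 4 genes past the threshold, or the 2 with the largest change where none passed; the 5 genes most like Fos; and Srebf1, Fabp4, Adipoq and Lep. Other genes are named after their values were seen, also where the text does not say so. Markers of epididymis, red blood cells, lymphocytes, mesothelium, fibroblasts and smooth muscle were also summed; Msln and Rgs5 fell, and 0 others of these passed the test. Same-numbered mice of the 2 groups did not deviate together (correlations of −0.37, 0.09 and −0.05), and no pairing was used. The highest correlation was 0.45, of wild type replicate 3 with transgenic replicate 1. With 3 arrays per group these values cannot exclude a pairing by litter. Alternatives were offsets of 1 and 64, no filter or 60%, quantile normalization, median centring, eBayes without trend, array weights, a replicate block, means over probe sets and each array left out; a block for the Pcx ratio class (under 10 or above) and quantile normalization without transgenic replicate 2 were added after the data were seen.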

Additional observations from a re-analysis of the deposited data

How the results depend on the processing

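Of the 802 probe sets past the threshold the count became 3359 with array quality weights, 341 with the replicate number as a block, 4976 with quantile normalization and without transgenic replicate 2, and 141 to 3565 with 1 array left out; the cause was not tested. The count of 1 immediate early gene (Atf3) became 3 with array quality weights (Fos, Egr2 and Atf3), 0 with the replicate block (limma, 4 at an unadjusted p under 0.05; Atf3 adjusted p = 0.141), 6 with quantile normalization and without transgenic replicate 2 (Fos, Jun, Egr2, Atf3, Ier3 and Dusp1), and 0 to 4 with 1 array left out. It was 0 whenever any array but transgenic replicate 2 was missing, with 3 or 4 at an unadjusted limma p under 0.05. Offsets, filters, both scalings of all 6 arrays, the variance prior, the mean over probe sets and the Pcx class block each kept it at 1, Atf3, counted on the brightest probe set of each gene; the dimmer Egr2 probe set also passed with the Pcx class block (adjusted p = 0.0269). Whether the replicate numbers of the labels pair the mice is not known.

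Directions turned only for genes near 0 or with 1 discordant array. Fosb (−0.04) had 0.07 with quantile normalization, 0.08 with median centring, 0.15 with array weights, −0.22 to 0.16 with 1 array left out (positive without wild type replicate 1 or 2 or transgenic replicate 2), and 0.09 with quantile normalization and without transgenic replicate 2. Junb (−0.37) had 0.20 with weights, −0.87 to 0.39 with 1 array left out (positive without transgenic replicate 2) and 0.36 with quantile normalization and without transgenic replicate 2. Egr1 had −0.68 to 0.23 with 1 array left out (positive without wild type replicate 2). Fabp4 (0.00) had −0.05 to 0.04 with 1 array left out and −0.81 as the mean over its probe sets. That mean was taken with all 6 arrays and not without transgenic replicate 2. The median log2 fold change of all probe sets was −0.09, and 0.02 after quantile normalization. With 6 arrays, genes that did not pass are not shown to be unchanged, large changes included, and signals near the offset of 16 have no firm fold change.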
